A study of Mus musculus with 4 samples.

Results

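Single-exon transcript loci that were assembled from the reads in free sequence next to known genes are described here, in the poly(A) RNA of sham-operated mouse hearts. A locus was taken where none of its transcript models was a UCSC model, all of them were of the intergenic class (class code u) with exactly 1 exon, and its span lay within 5 kb of the span of a locus that has a UCSC model, called below the annotated locus or the neighbour. Of 35299 loci in the deposited table, 3453 (9.78%) met the rule. They were 47.6% of the 7249 single-exon intergenic loci that remained once 5 loci named in the rule were left out. By the strand of the nearest annotated locus, 1281 lay on its 3' side, 1397 on its 5' side and 775 inside its span, where no side can be given. The comparison set was the 3796 single-exon intergenic loci more than 5 kb from any annotated locus.

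The study holds 1 group, Sham, with 4 biological replicates and no second group. The tissue was the heart of C57BL/6J mice at an age of 12 weeks, 2 weeks past sham surgery, sampled where an infarct's border would be. For replicate 4 the free-text label speaks of an infarct and leaves out sham, unlike its other labels, and no label ties the 4 libraries, named 3RL, 7LR, 8R and 12RL in the table, to replicate numbers. The heart as a tissue was not checked by marker genes, because loci carry no gene symbols. The authors scaled the read counts of each library by its own size factor, giving the normalised read counts used below, which are not divided by length. The libraries held 108345923 (12RL) to 160670654 (8R) recovered reads.

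Genes rarely stop being transcribed where the mature transcript ends: RNA polymerase runs on past the cleavage site, and longer alternative ends of the last exon can escape an annotation. Promoters often fire in both directions, so that short upstream transcripts start next to a gene's own start, and enhancers close to a gene can be transcribed as well. Of the 3453 loci, 3431 were listed with no strand and 22 with one. Of all loci described, 3429 consisted of 1 transcript model. Of the 7249 single-exon loci, 0 overlapped the span of a UCSC model. This follows from the choice of the intergenic class and is not a check of it. No genome sequence of the build of the files, mm9, was used here, so positions are given and no bases are shown.

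Among single-exon loci of class u, the only class the rule takes, almost none lay in the first 2 kb on the 3' side of known genes. On the 5' side they were most crowded next to the gene. Measured to the nearest UCSC model in place of the whole locus, 2 of 7249 single-exon intergenic loci lay less than 2 kb 3' of a model, against 853 less than 2 kb 5' of one. Both exceptions, at distances of 1654 and 1908 bases, were listed with a strand. The third smallest 3' distance was 2001 bases, and the bin from 2000 to 2500 bases then held 213 loci on the 3' side and 119 on the 5' side. On the 5' side 403 loci lay within 500 bases of a model, 180 at 500 to 1000 bases, and 81 at 4500 to 5000 bases. Spliced intergenic loci were present in the same zone: 54 of 1280 lay less than 2 kb 3' of a UCSC model and 173 less than 2 kb 5' of one.

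**Figure D1:**
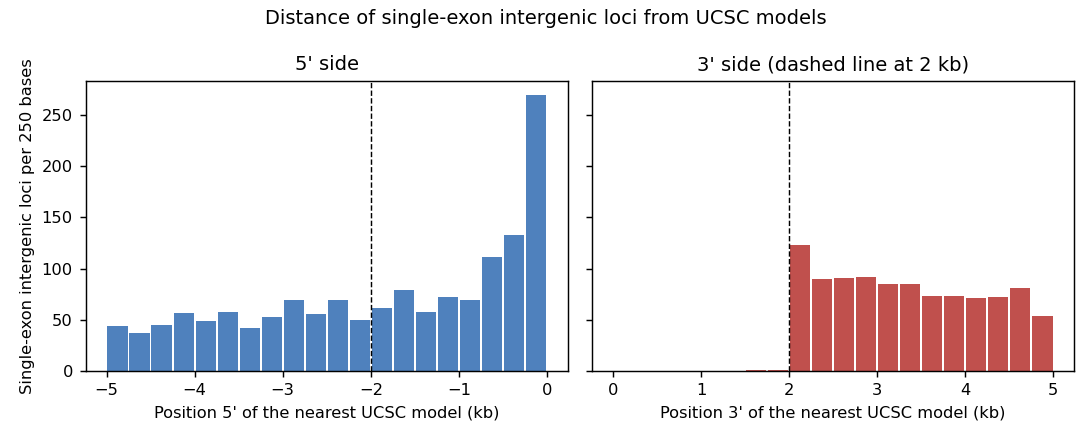
Number of single-exon intergenic loci per 250 bases by distance in kb from the nearest UCSC model on its 5' side (left) and its 3' side (right), with a dashed line at 2 kb. A locus near models of both kinds is counted in both panels. The 3' panel holds 2 loci below 2 kb, where the 5' panel holds 853.

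Among the class codes of the Cufflinks programs, p marks a possible run-on fragment close to a reference transcript and i a model inside a reference intron. Of the 77650 models in the file, 0 had class p and 0 had class i, while 11433 had class u. The rule takes only class u, so a model given class p could not be a member. The empty zone thus describes models coded u, not transcription past gene ends. The part of these codes in the empty zone was not tested. Comparisons of the sides below set loci at different distances from the reference models beside each other.

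Most 3' members lay beyond an extended neighbour. Assembled models had lengthened the neighbour past its UCSC models on that side for 931 of 1281 members on the 3' side (72.7%), by a median of 3540 bases, and for 485 of 1397 on the 5' side (34.7%), by a median of 1769 bases. On the 3' side 592 members lay less than 2 kb from the span, but 1 less than 2 kb from the UCSC models of the neighbour. On the 5' side these counts were 964 and 764. With the zone below 2 kb nearly empty, a 3' member that close to the span nearly always needed an extended neighbour. The shares of extended neighbours are thus partly fixed by the empty zone and are no result about the sides. The median distance to the span was 2090 bases on the 3' side and 960 bases on the 5' side. To the UCSC models of the neighbour it was 4324 and 1676 bases. The sides had similar numbers of loci, with 47.8% on the 3' side (95% Wilson interval 45.9 to 49.7, 2678 loci, which are not independent), or 18.2 per Mb of free sequence on the 3' side and 18.7 on the 5' side. Counted at 2 kb or more from the UCSC models of the neighbour, 66.9% were on the 3' side. As 3' members were nearly absent below that limit, it left out almost only 5' members. Within 1 kb of the span 36.5% were on the 3' side.

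The 775 loci inside a neighbour's span lay in spans that the assembly had widened. An assembled model of the neighbour reached past both ends of 748 of them. A UCSC model of the neighbour did so for 0, which the choice of the intergenic class fixes in advance. Relative to the UCSC models of the neighbour, 317 lay on the 3' side, 318 on the 5' side and 140 between models that the assembly had joined. They were concentrated at 275 annotated loci, against 1013 neighbours for the 3' members and 1115 for the 5' members. The neighbour with the most of them, at chr9:13274804-13517807, held 32, with means over the libraries of 0.867 to 47.2 normalised read counts.

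Levels were low on both sides and close to those of single-exon loci farther away. A read was seen in at least 1 library at 3424 of the 3453 loci, and each library detected between 3190 (12RL) and 3275 (7LR). A mean of 10 or more normalised read counts was reached by 1391 loci (40.3%) and a mean of 50 or more by 264. All members together held 0.0450% ± 0.0060 of the normalised counts (SD, n = 4), with 0.0416%, 0.0517%, 0.0384% and 0.0481% in 3RL, 7LR, 8R and 12RL. The 10 highest held 18.3% of that. In bulk tissue, fewer cells of a type and less RNA per cell cannot be told apart, for these loci as for their neighbours.

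The median counts of the sides differed by a single read at most. The median normalised read count of the 1275 members on the 3' side with a read in any library was 7.16, 7.97, 6.82 and 7.88 in 3RL, 7LR, 8R and 12RL. For the 1388 such 5' members it was the same in 3RL, 7LR and 12RL and 5.68 in 8R, which is 1 read fewer. On the log2(value + 1) scale the difference of medians, 3' minus 5', was 0.06 ± 0.11 (SD, n = 4). It was 0 in 3RL, 7LR and 12RL. The exact two-sided sign-flip test over libraries (p = 1) could then give no other value and decides nothing. The smallest p that 4 libraries without such zeros allow is 0.13. The direction of the difference turned with the measure. Per kb of locus it was -0.12, below 0 in 4 of 4 libraries. Between loci 2 kb or more from the UCSC models of the neighbour it was 0.23, above 0 in 4 of 4. Both differences had an exact sign-flip p of 0.13. The limit of 2 kb left out almost only 5' members. Medians of low counts fall on whole reads, and the mean in place of the median gave -0.019.

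Members as a whole were higher than the far loci by 1 read at the median, in each library only with those inside spans counted. In 3RL, 7LR, 8R and 12RL the medians were 7.16, 9.11, 6.82 and 7.88 against 5.97, 7.97, 5.68 and 6.31 normalised read counts. The difference of medians was 0.23 ± 0.04 on the log2 scale (SD, n = 4), with 0.23, 0.17, 0.23 and 0.28 in 3RL, 7LR, 8R and 12RL (exact two-sided sign-flip test, p = 0.13). Without the loci inside spans it was 0.18 ± 0.13, above 0 in 3 of 4 libraries (exact p = 0.25), and in 7LR the medians of the 3' side, the 5' side and the far loci were all 7.97. The difference was 0.13 per kb and 0.24 with means in place of medians. In the subset whose mean reached 10 it was 0.034 and held in 2 of 4 libraries (exact p = 0.62). Against loci more than 50 kb away it was 0.09, again in 2 of 4 (exact p = 0.5). Loci inside a span were the highest of the members, with a median of their means of 9.88 normalised read counts against 6.91 on the 3' side and 7.17 on the 5' side, but not in every library. Their difference to the 5' members was 0.00, 0.71, 0.42 and 0.62 in 3RL, 7LR, 8R and 12RL (exact p = 0.25).

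Loci within 500 bases of the neighbour's span had higher levels than those farther out, while the distance to the UCSC models gave no single order. On the 3' side 55.1% of the 294 loci within 500 bases of the neighbour's span had a mean of 10 or more, against 29.1% of the 368 at 3000 to 5000 bases. The nearer loci were longer, with a median of 1457 against 1145.5 bases, and per kb their medians were 8.01 and 5.28. On the 5' side the shares were 50.5% of 545 and 32.8% of 268, with 7.89 and 5.39 per kb. Measured to the UCSC models of the neighbour, 52.2% of the 381 members on the 5' side within 500 bases reached a mean of 10, with a median of 8.38 per kb, against 30.2% of the 467 at 2000 to 5000 bases, with 5.64 per kb. Beyond 5000 bases the share was again higher, at 39.2% of 166 members with 6.47 per kb. On the 3' side it was 34.7% of 789 at 2000 to 5000 bases, with 5.60 per kb, and 41.3% of 491 beyond, with 6.04 per kb. These shares were not tested, since loci are not replicates.

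Longer loci had more reads. Members spanned 102 to 19303 bases, with a median of 1199. Of 4 length classes of equal size, the longest, 1950 bases and more, had a median of their means of 27.2 normalised read counts, and 89.3% of it reached a mean of 10. In the shortest class, up to 855 bases, the median was 3.91 and the share 15.6%. Per kb these classes had medians of 8.36 and 6.11, with 5.22 and 6.00 in the classes between them, a much narrower range.

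The highest 3' member was XLOC_027385 at chr6:112555247-112558896, 1922 bases from the span of its neighbour at chr6:112560819-112648511 and 11902 bases from its UCSC models. It had 5740, 6208, 5940.0 and 5862 normalised read counts in 3RL, 7LR, 8R and 12RL, a mean of 5938 ± 198 (SD, n = 4). The 4 libraries lay close together, and this locus alone held 7.76% of the counts of all members. Its neighbour had 347 ± 54.3, and per kb the member was 16.6 times its neighbour.

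The other high 3' members were an order of magnitude lower. XLOC_014271 at chr17:23833375-23836651, 4803 bases from its neighbour at chr17:23841455-23859750, had 572, 399.7, 653 and 374 in 3RL, 7LR, 8R and 12RL. It was higher in 3RL and 8R than in the other two libraries. XLOC_030062 at chr7:82901549-82911054 began 69 bases past the span of its neighbour, 7195 bases past its UCSC models, and had 331, 439.6, 291 and 851 in the same order, with 12RL highest. XLOC_011642 at chr15:100880470-100884106 was even across the hearts, with 363, 352, 382 and 333. XLOC_033576 at chr9:7211557-7220870 had 360.5, 354, 283 and 361, with 8R below the others.

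On the 5' side the highest member was XLOC_005915 at chr11:86623892-86629897, 2729 bases upstream of the annotated locus at chr11:86582351-86621162. Its normalised read counts were 1475, 1539.7, 1647 and 1319.7 in 3RL, 7LR, 8R and 12RL, and its neighbour had 3240 ± 280.2 (SD, n = 4). Both were highest in 8R and lowest in 12RL. XLOC_022985 at chr4:12058396-12066592, 270 bases from the span of its neighbour and 821 bases from its UCSC models, had 708, 863, 822 and 733, close to the 783 ± 184 of the neighbour in count and 37.4% of it per kb. The next, XLOC_016435 at chr19:4060372-4066508, had 669.7, 722, 758 and 777 beside a neighbour at chr19:4057487-4059444 that was near 0, with 1.19, 2.28, 4.55 and 3.15.

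The remaining 2 of the 5 lay close to the spans of abundant annotated loci, but only XLOC_005944 was also close to a UCSC model. XLOC_001745 at chr1:135118936-135122524 ended 95 bases before the assembled span of a neighbour with 20251 ± 3368 normalised read counts and 20158 bases before its UCSC models, and had 716, 727, 734 and 520.3, with 12RL lowest. XLOC_005944 at chr11:93852095-93857298 ended 106 bases before the span and the UCSC models of a neighbour with 34224 ± 3734 and had 505, 707, 638 and 566. Per kb they stood at 5.20% and 2.51% of their neighbours.

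**Figure D2:**
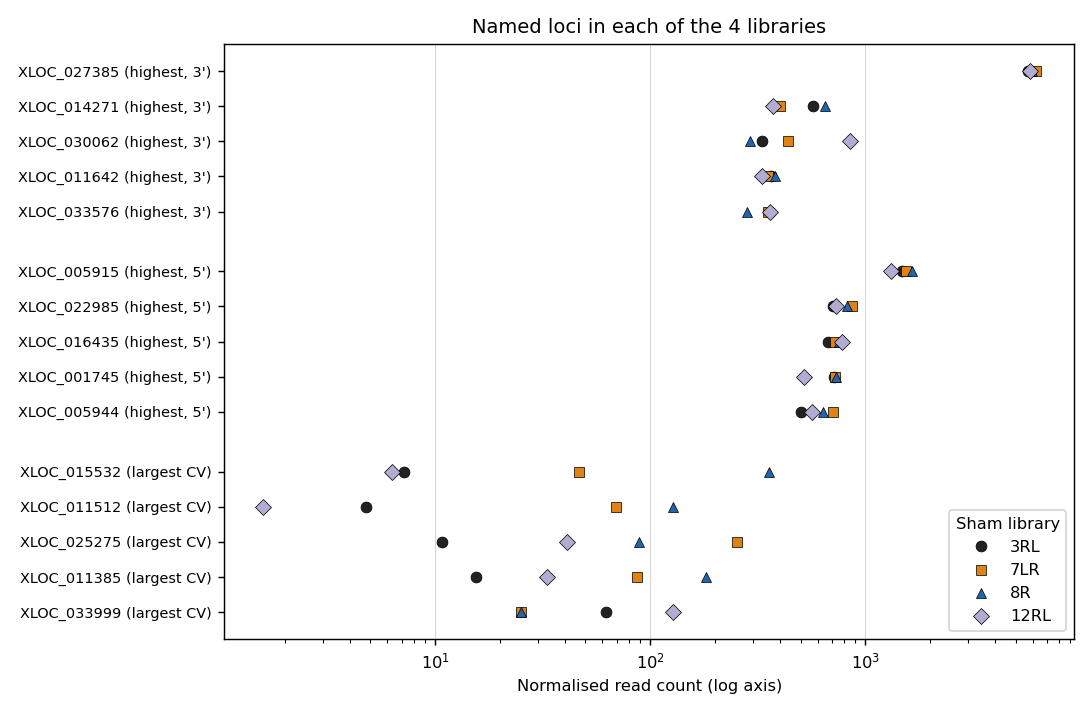
Normalised read counts (log axis) of the 5 highest members on each side and of the 5 members with the largest CV among those with a mean of 50 or more, 1 point per Sham library. Points of the highest 5' members lie close together, from 505 to 1647, while XLOC_015532 ranged from 6.31 to 357.

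Genes with a nearby single-exon locus were mostly expressed genes. The 2253 distinct neighbours had a median mean of 2682 normalised read counts, against 59.7 for all 26078 annotated loci, and 94.6% of them had a mean of 10 or more, against 57.3%. The annotated loci nearest to far single-exon loci were mostly expressed as well, with a median mean of 1298 and 79.1% at 10 or more (1827 loci). The share of annotated loci with a member was larger the higher their own level. It was 0.259% of the 7330 annotated loci at 0 in all libraries and 2.71% of those above 0 and under 10. Among annotated loci with a mean of 10 or more it went from 8.05% in the lowest of 4 classes of equal size, through 13.3% and 15.9%, to 19.7% in the highest. From the lowest to the highest of these classes it went, on each side alone, from 3.74% to 8.67% for the 3' side and from 3.93% to 9.95% for the 5' side. Most neighbours, 1575, had 1 member, and 91 had members on both sides.

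**Figure D3:**
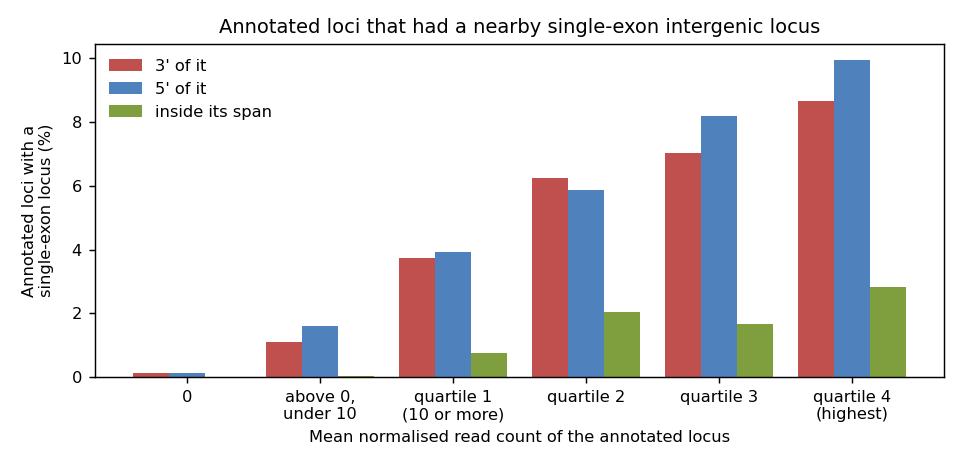
Percent of annotated loci that were the neighbour of at least 1 member on the 3' side, on the 5' side or inside the span, by the mean normalised read count of the annotated locus (at 0, under 10, and 4 equal classes of those with 10 or more). For the 5' side the bars reach 9.95% in the highest class, against 0.123% for annotated loci at 0.

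Beside its neighbour, a member typically stood at a few percent of the level per kb or less. Where both had a mean of 10 or more, the member's count per kb was a median of 0.880% of the neighbour's on the 3' side (462 pairs) and 1.07% on the 5' side (497 pairs), the neighbour's length being that of its longest UCSC model. Far loci stood at 1.16% of their nearest annotated locus (1036 pairs). On the log2 scale the medians of the sides were -6.83 ± 0.17 and -6.55 ± 0.09 (SD, n = 4). With all merged exons as the neighbour's length they were -5.58 and -5.72, and for pairs in which both had a mean of 50 or more -6.13 and -5.02. The difference, -0.28 ± 0.10, was below 0 in 4 of 4 libraries (exact two-sided sign-flip test, p = 0.13), and -1.11 ± 0.12 at a mean of 50 or more, again in 4 of 4. It turned to 0.14 with all merged exons and to 0.17 between loci 2 kb or more from the UCSC models of the neighbour, each above 0 in 4 of 4, and without 3RL or without 8R it was -0.17. At 2 kb or more only the 5' median changed, to -7.00, as that limit left out almost only 5' members. The direction of a difference between the sides thus depended on these choices. A member was above its neighbour per kb in 6 pairs on each side (1.30% on the 3' side and 1.21% on the 5' side). For far loci it was 60 of 1036 pairs (5.79%). Left out of the pairs were 15 members on the 3' side and 35 on the 5' side whose neighbour had a mean under 10.

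**Figure D4:**
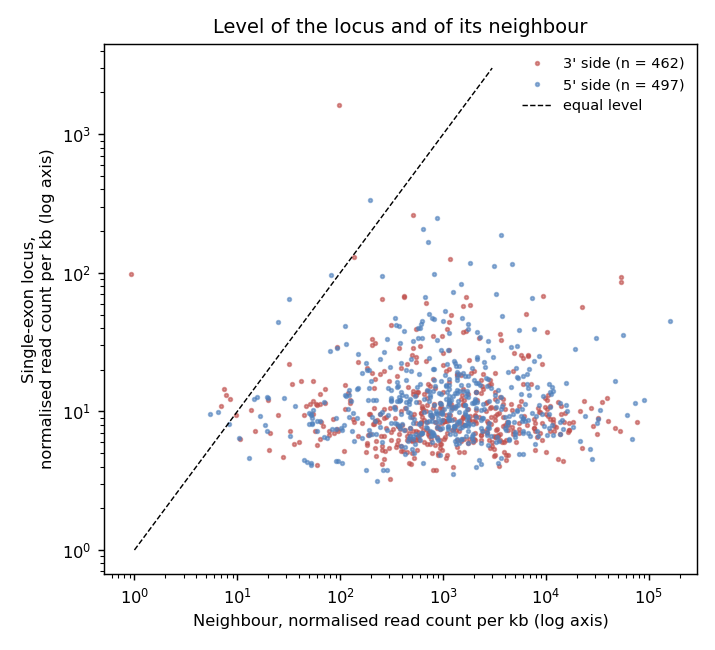
Mean normalised read count per kb of each 3' or 5' member against that of its neighbour, on log axes, for 462 and 497 pairs in which both had a mean of 10 or more. The dashed line marks equal levels, and 6 points of each side lie above it.

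The members that exceeded their neighbours most stood beside genes near 0. Besides XLOC_014271, XLOC_011642 and XLOC_016435 these were XLOC_001848 at chr1:179913379-179920548 and XLOC_020979 at chr3:60680918-60681183, both on the 5' side. XLOC_001848 had 479, 673, 633 and 571 in 3RL, 7LR, 8R and 12RL, where its neighbour at chr1:179921642-180102835 had 4.77, 6.83, 3.41 and 7.88. XLOC_020979, a short locus of 266 bases, had 40.6, 53.5, 64.8 and 45.7, against 5.97, 6.83, 9.09 and 3.15 for the neighbour. For XLOC_014271 the neighbour had 7.16, 2.28, 3.41 and 4.73, and for XLOC_011642 it had 7.16, 12.5, 4.55 and 17.3. With so few reads in the neighbours no ratio is given. The next annotated locus was more than 5 kb away from each of these 5 members, at 12389 bases from XLOC_014271 and 15979 bases from XLOC_016435, and it was also near 0 there, with means of 1.84 and 0.

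Levels of members and neighbours were weakly related at most. Across pairs above 0, Spearman's rho of the levels, averaged over the libraries, was 0.089 on the 3' side (1265 pairs), 0.095 on the 5' side (1378), 0.169 inside spans (761) and 0.034 between far loci and their nearest annotated locus (3459). Deviations of a locus from its own mean over the 4 libraries gave 0.121 (462 pairs), 0.088 (497), 0.122 (382) and 0.041 (1036). The pairs share libraries and counting noise, the counts are low, and correlations this weak are no finding. The highest library was the same for member and neighbour in 143 of 462 pairs on the 3' side, 134 of 497 on the 5' side, 120 of 382 inside and 301 of 1036 for far loci.

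Members close to each other had related deviations, though members farther apart were not set beside them. Of all members, 1276 (37.0%) lay within 1 kb of the next member along the chromosome, in 721 pairs, 683 of which had the same neighbour. In the 176 such pairs where both had a mean of 10 or more, the rho of the deviations was 0.489 over the libraries. This is a description of pairs that mostly share a neighbour, and counts of members are counts of assembled models. Loci inside spans also shared deviations as a set, as given below. The part of closeness in this rho was not tested.

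Between hearts, members varied more than annotated loci, and those inside spans most. For loci whose mean reached 10, the median SD of log2(value + 1) over the libraries was 0.44 on the 3' side (477 loci), 0.44 on the 5' side (532), 0.61 inside spans (382) and 0.53 for far loci (1310). For annotated loci it was 0.16, at much higher counts. For 10 reads, a Poisson count has a CV of 31.6%, and its part in these medians was not tested. At a mean of 50 or more they were 0.31, 0.28, 0.44 and 0.42. Of the 264 members with such a mean, Dixon's ratio put 1 library above the other 3 at 7 loci (2.65%), where 3.15% of all 14424 loci with that mean were called, and 1 library below the other 3 at 9 loci (3.41%), where 1.45% were called. The upward share is near that of all loci, and the downward share rests on 9 loci, of which 6 were on the 3' side.

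The most variable members were low in some hearts and well expressed in others. XLOC_015532 at chr18:61637027-61644370, which ended 49 bases before its neighbour on the 5' side, had 7.16, 46.7, 357 and 6.31 normalised read counts in 3RL, 7LR, 8R and 12RL. The neighbour, at chr18:61644420-61653547, had 313, 322, 449 and 371, so both were highest in 8R, with a CV of 163% for the member and 17.1% for the neighbour. A second annotated locus within 5 kb, 4408 bases from the member, had 479, 711, 626 and 557 and was highest in 7LR. XLOC_011512 at chr15:74916741-74917468, inside a span, had 4.77, 69.5, 127 and 1.58, and XLOC_011385 at chr15:32808565-32812374, also inside a span, had 15.5, 86.5, 182 and 33.1. These 3 members were highest in 8R and next highest in 7LR.

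The other 2 of the 5 followed other libraries. XLOC_025275 at chr5:51836272-51844103, 178 bases past the span of its neighbour and 2524 bases past its UCSC models, had 10.7, 253, 88.7 and 41.0 in 3RL, 7LR, 8R and 12RL, while the neighbour had between 23338 and 35406. XLOC_033999 at chr9:124050536-124062385, 772 bases past the assembled span of its neighbour and 8615 bases past its UCSC models, had 62.1, 25.1, 25.01 and 128. Its neighbour at chr9:124036312-124049763 was likewise higher in 3RL (812) and 12RL (697) than in 7LR (240.3) and 8R (306).

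Loci inside spans were high in 7LR and 12RL far more often than the rest. Of the 382 with a mean of 10 or more, 153 were highest in 7LR, 150 in 12RL, 46 in 8R and 33 in 3RL. Because the sets differ in level, they were also compared at means of 10 to 50. There 80.9% of 299 loci inside spans were highest in 7LR or 12RL, against 62.1% of 391 on the 3' side, 62.2% of 437 on the 5' side, 64.2% of 1097 far loci and 50.7% of 1703 annotated loci. This pair of libraries was picked after the values were seen, and the difference was not tested.

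In the same loci inside spans, the median log2 deviation from the mean of the libraries was 0.36 in 7LR, 0.28 in 12RL, -0.27 in 8R and -0.34 in 3RL. On the 3' side it was 0.10, 0.10, -0.08 and -0.02, and on the 5' side 0.11, 0.10, -0.08 and -0.08. The 177 neighbours of the loci inside spans moved little, with 0.05, 0.02, -0.01 and -0.06. With counts summed per neighbour, so that each annotated locus enters once, 197 sums had deviations of 0.36, 0.22, -0.26 and -0.32. Sums over all loci inside spans were 0.0152% of the counts in 7LR and 0.0138% in 12RL, against 0.0097% in 8R and 0.0102% in 3RL.

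**Figure D5:**
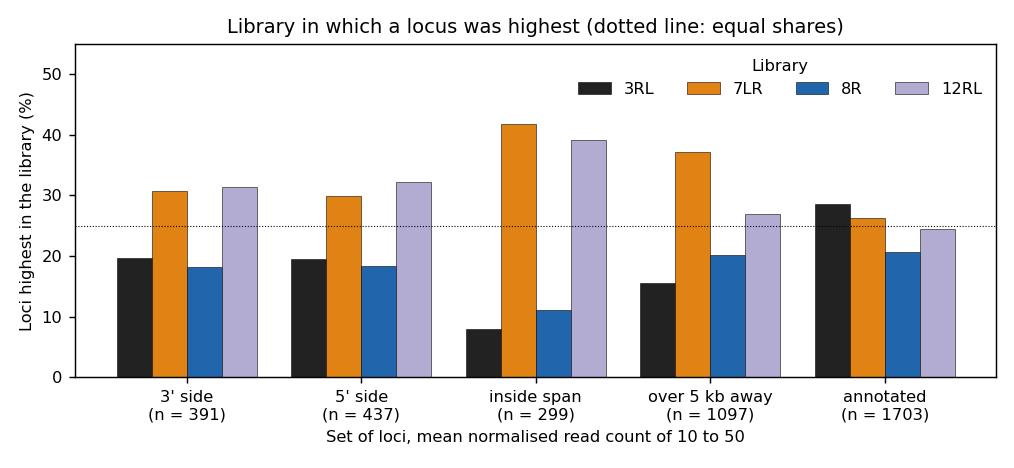
Percent of loci with a mean of 10 to 50 normalised read counts that were highest in each of the 4 Sham libraries, for loci 3' of, 5' of and inside the span of an annotated locus, loci over 5 kb away and annotated loci. The bars for loci inside spans stand at 41.8% in 7LR and 39.1% in 12RL, against 11.0% in 8R and 8.03% in 3RL.

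Of the highest loci inside spans, named after their values were seen, the first followed another library. XLOC_005751 at chr11:48827591-48832691 had 1829.9, 1746, 1353 and 1619 normalised read counts in 3RL, 7LR, 8R and 12RL. XLOC_015406 at chr18:31732193-31737324 had 980.0, 1082, 1055 and 1072, with 3RL lowest and a CV of 4.41%. XLOC_023049 at chr4:42073669-42090366 had 253, 797, 490.0 and 569. Both were highest in 7LR and next highest in 12RL.

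The longest member, XLOC_030158, spanned 19303 bases at chr7:118234842-118254144 between the UCSC models of a neighbour with 166064 ± 6153 normalised read counts (SD, n = 4). It had 345, 382, 318 and 408, or 0.0879% of the neighbour per kb. The next longest, XLOC_003409 at chr10:29013597-29032534 with 18938 bases, ended 454 bases before its neighbour and had 214, 295, 133 and 328. The third longest was XLOC_023049, with 16698 bases.

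The 5 kb limit cut through a continuous set of loci. The 3 members farthest inside the limit with a mean of 10 or more were XLOC_027293 at 4994 bases, XLOC_035067 at 4966 bases and XLOC_005930 at 4958 bases, with means of 10.4, 40.5 and 16.3 normalised read counts. With the same minimum mean, the 3 nearest loci outside it were XLOC_010105 at 5006 bases, XLOC_008546 at 5046 bases and XLOC_016423 at 5057 bases, with means of 20.6, 33.2 and 17.9. The ranges of the inner and outer loci overlapped.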

How the data were processed

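The 4 Sham libraries were made from poly(A) RNA and read from both ends, per the labels' protocols. The submitters' processing notes name the build mm9 and, with no order or role, TopHat2 2.0.5, HTSeq 0.5.4p2, Cufflinks 2.0.2 and DESeq. Strandedness and counting mode were not given in the sources used here, so counts of overlapping, antisense or near-identical loci are uncertain. The authors deposited a table of signal values, which are read counts over a size factor of each library, and transcript models pooled over the series, whose other values are 1-based exon positions, per the file's GTF format. In every column 100% of values were whole multiples of 1 step within 0.001, so whole reads were recovered. With 1 group no count test was run.

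Spans, gaps and sides were computed from the models. Levels were compared as log2(value + 1), by medians within each library of loci with a read in any library, with an exact sign-flip test over libraries. The minimum mean was 10 for spread, deviations and ratios, and 50 for rankings. For ratios and the rho of deviations, a minimum mean applied to both member and neighbour. P-values measure the spread between these samples. Wilson intervals cover counting error only. Named were the 5 highest loci per side, the 5 with the largest CV, the 5 with the highest ratio per kb, the 3 longest and the 3 on each side of the limit. Members, lists and alternatives were chosen with earlier results of these data known. Alternatives were other pseudocounts, minimum means, distances, lengths, equal table totals, TMM (R 4.3.3 with edgeR 4.0.16) and leaving out each library. Scripts ran under Python 3.11.15 with pandas 2.3.3, scipy 1.17.1 and numpy 2.4.6, and were tested on simulated data.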

Additional observations from a re-analysis of the deposited data

Results flagged for a closer look

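In 7 of 76 sets of 4 library values examined, 1 library stood away from the rest by Dixon's ratio. Chance gives this in about 1 of 20 sets only for independent, normally distributed values. The sets here overlap, hold ties at 0 and include loci picked for a large CV, so the 7 are not read against that rate. The difference in level between the sides was 0.23 in 8R and 0 in the others, which is 1 read. The rho of the deviations of 5' members and neighbours was 0.153 in 3RL, with the next at 0.073 in 12RL. XLOC_033576 had 283 normalised read counts in 8R, with the next lowest at 354. XLOC_001745 had 520.3 in 12RL, with the next lowest at 716. XLOC_015532 had 357 in 8R, with the next highest at 46.7. The annotated locus around XLOC_023049, at chr4:41774207-42232176, had 59.2 in 7LR, 1.19 in 3RL and 0 in 8R and 12RL. XLOC_010105, just outside the 5 kb limit, had 25.1 in 7LR, with the next highest at 19.3.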

How the results depend on the processing

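The alternatives that rest on the distance to the UCSC models, on means in place of medians, on members alone at their neighbour and on members inside spans were added after the data had been seen. The number of members was 1895 within 1 kb. The share on the 3' side was 36.5% within 1 kb, 38.0% within 2 kb, 49.8% within 10 kb and 66.9% at 2 kb or more from the UCSC models of the neighbour. This last limit, here and below, left out 764 members on the 5' side and 1 on the 3' side. Members held 0.0648% of the counts without the mitochondrial chromosome. The level difference between the sides was -0.0048 at a mean of 10 or more, -0.12 per kb, -0.00028 within 2 kb and -0.019 with means, 0 for members alone at their neighbour, and 0 in each of the 4 fits that left out a library. That of members against far loci kept its direction in 14 of 14 alternatives, from 0.034 to 0.25. It was above 0 in 4 of 4 libraries, so other pseudocounts, other scalings and leaving out a library had little room to turn it. The difference in spread, 3' minus 5', of -0.0017 was 0.027 at a mean of 50 or more and -0.021 at 2 kb or more from the UCSC models, and -0.017 to 0.019 when each library was left out. The rho of levels was 0.019 on the 3' side and 0.014 on the 5' side at a mean of 10 or more, and on the 5' side 0.105 per kb and 0.080 at 2 kb or more. The rho of deviations on the 5' side was 0.135 at a mean of 50 or more. The ratio per kb, 3' minus 5', turned from -0.28 to 0.14 with merged exons and to 0.17 at 2 kb or more, was -1.11 at a mean of 50 or more, and -0.32 to -0.17 when each library was left out, which also changes the loci that reach the minimum mean. Loci inside spans were highest in 7LR or 12RL in 79.3%, and in 73.5% at a mean of 50 or more. The means of named loci moved by less than their SD under 58 of 58 scalings. These scalings keep the average table total, so such means had little room to move. For all of these changes the cause was not tested. No paired analysis was possible because the 4 libraries form 1 group. Depth limits the comparison of sides and that with far loci: near 7 normalised read counts, 1 read is the step between medians.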

Other observations

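The number of members per 100 annotated loci differed between chromosomes. It was highest on chromosome 18 with 19.2 (134 members) and chromosome 19 with 18.8 (144), and lowest on chromosome 14 with 8.01 (89), chromosome 7 with 8.34 (188) and chromosome X with 8.88 (80). Chromosome Y and the mitochondrial chromosome had 0 members beside 13 and 8 annotated loci, too few to compare. The annotated loci counted include those without reads, which rarely had a member. Levels were not matched between chromosomes.

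Some annotated loci held many members inside their spans. The locus at chr2:174760581-174967500 held 18, whose summed normalised read counts were 228, 269.9, 248 and 301 in 3RL, 7LR, 8R and 12RL, against 733 to 878 for the annotated locus itself. The locus at chr2:45094724-45403283 held 16, with sums of 186, 393, 225 and 218. There 7LR was highest, while the annotated locus had 929, 1591, 1186 and 1676 in 3RL, 7LR, 8R and 12RL.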
